A study of Mus musculus with 8 samples.

Results

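The genes described here are the collagen and laminin chains of mouse neurospheres, 51 genes whose array name was a collagen chain (Col, a number, a, a number) or a laminin alpha, beta or gamma chain (Lama, Lamb or Lamc and a number). They were chosen by name alone, from 35682 genes with a probe, and 75 probes carried their names. For each gene the probe with the highest mean signal was used. Of the 51 chains, 47 were well above the local background on at least 2 of 8 arrays and were tested, among 27234 genes tested in all, and 35 were well above background on every array. Col4a3 was well above background on no array, and Col6a6, Col10a1 and Col17a1 on 1 each, so these 4 were not tested. By class, 11 were fibrillar collagens, 16 were basement membrane chains (6 of collagen IV and 10 laminins), and 24 were other collagens.

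Collagens are proteins of 3 chains wound into a helix, with glycine recurring at a fixed interval along the helix. Fibrillar collagens build the fibres of connective tissue, collagen IV and the laminins build the networks of basement membranes, and the remaining collagens coat fibrils, form filaments or networks, or span the cell membrane. A laminin is a trimer of an alpha, a beta and a gamma chain, and it binds integrins and dystroglycan on the cell surface. In the developing brain, the pial basement membrane anchors the end feet of radial glia, laminins in the germinal zone contact neural stem cells, and fibrillar collagens come mainly from the meninges and vessel walls.

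The cells, labelled NSPCs and kept as neurospheres (clusters of neural progenitors in suspension), came from EB3, a line of mouse embryonic stem cells, that had first formed embryoid bodies in the presence of Noggin, a BMP antagonist. All 8 cultures were dissociated from embryoid bodies of day 6, plated with lentivirus at a multiplicity of infection of about 25, and grown in suspension with 20 ng/ml FGF2. Tertiary neurospheres (P2) had been dissociated and regrown after the primary neurospheres (P0), which had grown for 6 days. At each passage there were 4 cultures: Nr2f1/2 shRNA (against the Nr2f1 and Nr2f2 mRNAs), control shRNA (against firefly luciferase), miR-17, and control miRNA. Each of the 8 groups has 1 array, and no difference between 2 cultures of 1 passage has a replicate check. The passages were compared over 4 arrays each, with the condition as a block. Whether the cultures were independent is not in the labels, so p-values measure only the spread between these samples, and their small number limits the precision. All 8 arrays lay on 1 slide, the shRNA arrays in column 1 and the miRNA arrays in column 2. Vector system and slide column therefore cannot be told apart, nor can slide row and the passage and treatment that go with it.

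Values are normalised intensities, on which 1 is the upper quartile (the 75th percentile) of the array, and they compare arrays for 1 probe, not probes with each other. Between 57.9% and 67.9% of non-control spots were well above background per array, and none was saturated. The shRNA targets were lower in the knockdown cultures at both passages. Nr2f1 stood at 13.3 with Nr2f1/2 shRNA against 29.9 with control shRNA at P2, and at 41.3 against 71.4 at P0. Nr2f2 stood at 3.15 with Nr2f1/2 shRNA against 5.88 with control shRNA at P2, and at 7.06 against 10.02 at P0. All 12 neural stem and progenitor markers examined were well above background on every array. RNA came from whole cultures, so a change in the number of cells of a type and a change in RNA per cell cannot be told apart for any of the values here.

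The repeat that defines a collagen can be read in 4 of the 75 member probes, in which glycine codons (GGN, in capitals) recur with 2 other codons between them. They are shown because 3 of them belong to chains that changed with passage, and give a second measurement of those chains. Each is the 60-base probe sequence in the deposited scanner files, 5′ to 3′ on the plus strand of mm9.
Col14a1, chr15:55347733-55347792: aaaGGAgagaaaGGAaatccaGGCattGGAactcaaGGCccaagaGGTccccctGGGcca
Col15a1, chr4:47283786-47283845: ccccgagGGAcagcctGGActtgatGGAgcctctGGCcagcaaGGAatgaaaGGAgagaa
Col16a1, chr4:129756457-129756516: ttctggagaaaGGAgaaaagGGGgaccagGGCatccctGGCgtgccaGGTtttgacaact
Col25a1, chr3:130270497-130270556: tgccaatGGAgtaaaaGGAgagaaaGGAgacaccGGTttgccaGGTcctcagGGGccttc
The Col14a1 probe holds 7 such codons with the run broken once, the Col15a1 and Col25a1 probes hold 6 in a row, and the Col16a1 probe holds 5. Only the Col15a1 probe is the one used for its gene.

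The first comparison was between tertiary and primary neurospheres. Most chains were higher in tertiary neurospheres. The difference was above zero for 35 of 47 chains (74.5%), with a median of 0.92 on the log2 scale, whereas it was above zero for 39.4% of all 27234 genes, whose median was -0.21. At an adjusted p under 0.05 (limma, Benjamini-Hochberg over all genes tested, two-sided), 6 chains rose and 1 fell. Those that rose were Col1a1, Col1a2, Col8a2, Col9a1, Col14a1 and Col16a1, and the 1 that fell was Col25a1. Over all genes, 2.6% rose and 2.36% fell. Without adjustment 29 of the 47 chains had p under 0.05, as had 10918 of all genes. In 14 chains every P2 array lay above every P0 array, against 9.29% of all genes, and in none did every P2 array lie below, against 15.2% of all genes. These calls rest on 3 residual degrees of freedom and on which arrays enter. Leaving out either array of control shRNA, control miRNA or miR-17, and with it the block partner, left 0 genes and 0 chains called, whereas leaving out either array of Nr2f1/2 shRNA gave 13 chains called, 11 higher and 2 lower, among 4813 genes.

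**Figure D1:**
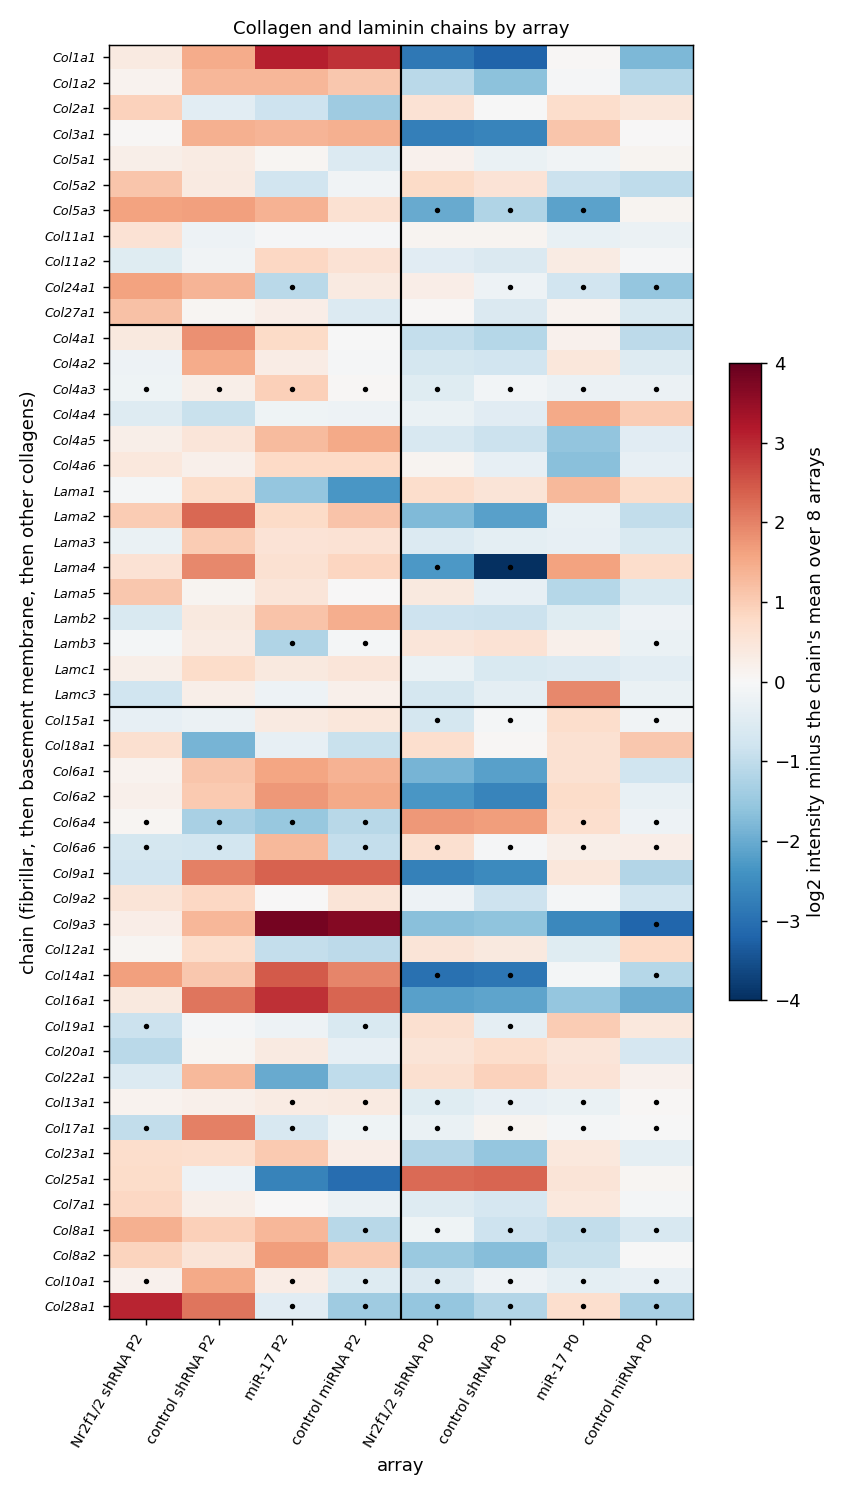
Each row is 1 chain and each column 1 array, with tertiary (P2) arrays left of the primary (P0) arrays; colour is log2 intensity minus the chain's mean over the 8 arrays, and a black dot marks a chain not well above background on that array. Col1a1, Col1a2, Col3a1, Col6a1, Col6a2, Col9a1, Col14a1 and Col16a1 are red on most tertiary arrays and blue on the primary shRNA arrays, and Col25a1 is blue on the tertiary miRNA arrays and red on the primary shRNA arrays.

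Within single conditions, the number of tested chains higher at P2 than at P0 was 34 of 47 with Nr2f1/2 shRNA, 37 with control shRNA, 29 with miR-17 and 33 with control miRNA. The median P2 minus P0 difference was 0.63 with Nr2f1/2 shRNA, 1.25 with control shRNA, 0.27 with miR-17 and 0.60 with control miRNA on the log2 scale. All 4 medians were above zero, while the all-gene medians of the same pairs lay between -0.25 and -0.11.

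**Figure D2:**
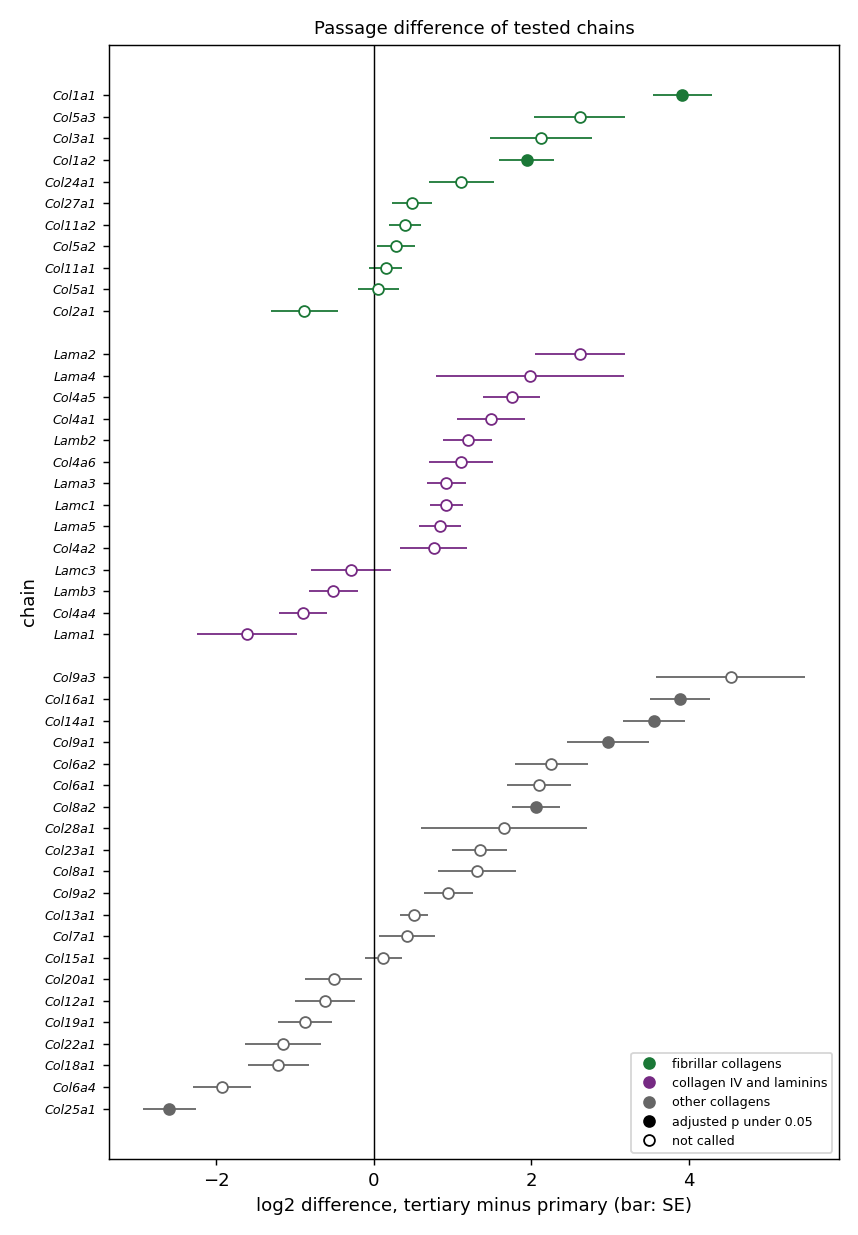
Points are the fitted log2 difference, tertiary minus primary, of tested chains, with bars of 1 SE; filled points have an adjusted p under 0.05. The largest difference that passed the test was that of Col1a1 (3.92), and Col25a1 was the only chain past the test below zero (-2.60).

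Of the 11 fibrillar collagens, 2 rose and none fell, against 2.6% and 2.36% of all genes, and 10 lay above zero, with a median of 0.49. Both called chains form collagen I, the main fibre of bone, skin and meninges. Col1a1 stood at 2.78 with Nr2f1/2 shRNA, 6.03 with control shRNA, 18.5 with miR-17 and 15.8 with control miRNA at P2. At P0 it stood at 0.296 with Nr2f1/2 shRNA, 0.232 with control shRNA, 2.20 with miR-17 and 0.618 with control miRNA. Every tertiary array lay above every primary array, and within the primary set the miR-17 culture was highest. The fitted difference was 3.92 (SE 0.38, adjusted p = 0.0305), a 15.1-fold rise. Col1a2, the partner chain, stood at 12.03 with Nr2f1/2 shRNA, 27.2 with control shRNA, 27.8 with miR-17 and 23.3 with control miRNA at P2. The primary values were 5.19 with Nr2f1/2 shRNA, 3.51 with control shRNA, 10.697 with miR-17 and 4.98 with control miRNA. The passages did not overlap here either, although the knockdown culture at P2 came close to the miR-17 culture at P0. The difference was 1.94 (SE 0.35, adjusted p = 0.0488), or 3.84-fold, and it no longer passed the test after quantile normalisation or without the filter on dim probes.

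Collagen III, which shares fibres with collagen I in vessels and meninges, went a similar way without passing the test. Col3a1 ranged from 7.90 to 20.4 at P2 and from 1.14 to 16.3 at P0, with a difference of 2.12 (SE 0.65, adjusted p = 0.0832). Its passages overlapped, because the knockdown culture at P2 (7.90) lay below the miR-17 culture at P0 (16.3). Col5a3, a minor chain of collagen V, ranged from 0.1404 to 0.289 at P2, and at P0 it was well above background on 1 of 4 arrays. It was at least 5.18-fold higher at P2, with an adjusted p of 0.0588. Col2a1, the chain of the cartilage collagen II, which early neuroepithelium also makes, was the only fibrillar chain below zero. It ranged from 2.66 to 13.7 at P2 and from 7.17 to 11.7 at P0 (-0.88, SE 0.42, adjusted p = 0.182). Its highest and lowest values were both tertiary, in the knockdown culture and the control miRNA culture. The other fibrillar chains (Col5a1, Col5a2, Col11a1, Col11a2, Col24a1 and Col27a1) had differences between 0.06 and 1.11, none past the test.

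**Figure D3:**
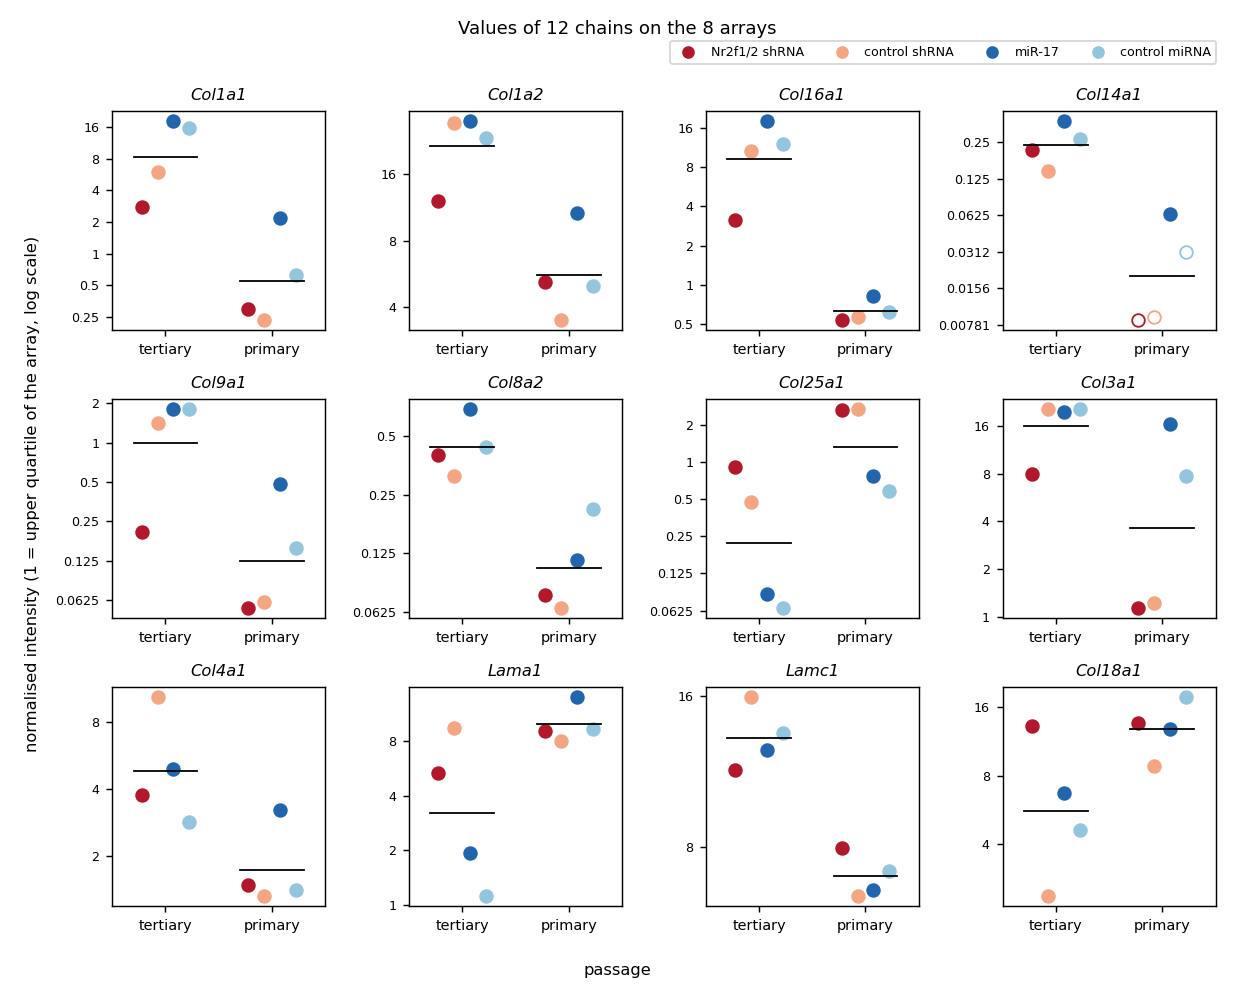
Normalised intensity of 12 chains on a log scale, tertiary arrays left and primary arrays right, coloured by condition; open points are not well above background, and the bar is the mean of the log2 values of the 4 arrays. Col1a1, Col1a2, Col16a1, Col14a1, Col8a2 and Lamc1 do not overlap between passages, whereas Col9a1, Col25a1, Col3a1, Col4a1, Lama1 and Col18a1 do.

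The FACIT collagens, which sit on the surface of fibrils, held 3 of the 6 chains that rose. Of these 9 chains, 5 lay above zero and the median was 0.95. Col16a1, a FACIT of dermal fibrils and cartilage, stood at 3.13 with Nr2f1/2 shRNA, 10.6 with control shRNA, 18.2 with miR-17 and 11.97 with control miRNA at P2. The P0 values were 0.535 with Nr2f1/2 shRNA, 0.562 with control shRNA, 0.823 with miR-17 and 0.612 with control miRNA. The 4 primary cultures lay close together and the tertiary cultures all lay above them, the knockdown culture least. The difference was 3.89 (SE 0.38, adjusted p = 0.0305), or 14.8-fold. Its helix probe, printed above, was well above background on only 3 arrays and gave 1.60.

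Col14a1, a FACIT of tendon and skin, stood at 0.214 with Nr2f1/2 shRNA, 0.145 with control shRNA, 0.376 with miR-17 and 0.264 with control miRNA at P2. At P0 only the miR-17 culture, at 0.0645, was well above background. The fit gave 3.56 (SE 0.39, adjusted p = 0.0336), and with the dim arrays at their limit the rise was at least 5.98-fold. The helix probe of the same gene gave 0.54, the widest gap between probes among the 11 chains with several usable probes (3.02 on the log2 scale).

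Col9a1, a chain of the cartilage FACIT collagen IX, stood at 0.205 with Nr2f1/2 shRNA, 1.41 with control shRNA, 1.81 with miR-17 and 1.81 with control miRNA at P2. At P0 it stood at 0.0539 with Nr2f1/2 shRNA, 0.0603 with control shRNA, 0.481 with miR-17 and 0.156 with control miRNA. The tertiary knockdown culture fell below the primary miR-17 culture, so the passages overlapped, although the tertiary culture was higher in all 4 conditions. The difference was 2.98 (SE 0.52, adjusted p = 0.0468), and another probe of the gene, well above background on 7 of 8 arrays, gave 0.10. The call was lost with the mean of both probes, without the filter and without the condition block. Its partner Col9a3 had the largest difference of all chains (4.53, SE 0.95), which did not pass the test (adjusted p = 0.0555). It stood at 0.342 with Nr2f1/2 shRNA, 0.709 with control shRNA, 4.02 with miR-17 and 3.59 with control miRNA at P2, against 0.0314 to 0.0928 at P0. The miRNA cultures were thus the highest at P2. Col9a2, the remaining chain of the trimer, ranged from 1.43 to 2.49 at P2 and from 0.792 to 1.33 at P0 (0.95, adjusted p = 0.0914). Col22a1, a FACIT of muscle-tendon junctions, ranged from 0.417 to 4.10 at P2 and from 1.90 to 3.22 at P0 (-1.15, adjusted p = 0.1395). Col12a1 (-0.62), Col19a1 (-0.87) and Col20a1 (-0.51) were the other FACIT chains below zero, none past the test.

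Among filament and network collagens, Col8a2 rose. It encodes a chain of collagen VIII, which forms hexagonal sheets in the cornea. It stood at 0.399 with Nr2f1/2 shRNA, 0.310 with control shRNA, 0.688 with miR-17 and 0.441 with control miRNA at P2. The primary values were 0.0764 with Nr2f1/2 shRNA, 0.0655 with control shRNA, 0.116 with miR-17 and 0.211 with control miRNA. Every tertiary array was above every primary array, and the difference was 2.06 (SE 0.31, adjusted p = 0.0408), or 4.18-fold. The main chains of collagen VI, which forms beaded filaments around many cells, narrowly missed the threshold. Col6a1 ranged from 2.50 to 6.82 at P2 and from 0.507 to 3.54 at P0 (2.10, SE 0.40, adjusted p = 0.0523). Col6a2 ranged from 0.379 to 1.09 at P2 and from 0.0526 to 0.549 at P0 (2.26, SE 0.47, adjusted p = 0.0550). In both, the primary miR-17 culture lay above the tertiary knockdown culture. Col6a4 was well above background on no P2 array and on 2 P0 arrays, those of the shRNA cultures, and was at least 1.32-fold lower at P2 (adjusted p = 0.0521). Col7a1 of anchoring fibrils (0.42) did not pass the test. The dim chains Col8a1 and Col28a1 were above background on no P0 array and did not pass it either.

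Col25a1 was the chain that fell. It encodes a transmembrane collagen of neurons, which in mice is needed for motor axons to innervate muscle. It stood at 0.909 with Nr2f1/2 shRNA, 0.478 with control shRNA, 0.0850 with miR-17 and 0.0653 with control miRNA at P2. The P0 values were 2.65 with Nr2f1/2 shRNA, 2.71 with control shRNA, 0.777 with miR-17 and 0.579 with control miRNA. Within each vector system the passages were apart, but the shRNA cultures were so much higher that the tertiary knockdown culture lay above both primary miRNA cultures. The difference was -2.60 (SE 0.34, adjusted p = 0.0364), a 6.05-fold fall, and its helix probe, well above background on all 8 arrays, gave -1.42. The call was lost without the condition block. Of 8 neuron markers, 1 was called lower, against 2.36% of all genes. It was Elavl4, an RNA-binding protein of neurons (-2.12, adjusted p = 0.0437). The 8 markers had a median difference of -0.74. Their summed normalised intensity overlapped between passages, at 83.6 to 117 at P2 and 115 to 278 at P0, and without Snap25, the brightest of them, it was 39.6 to 93.7 at P2 and 80.3 to 111 at P0. Their part in the fall of Col25a1 was not tested. Of the other transmembrane collagens, Col23a1 had a difference of 1.35 (adjusted p = 0.0690) and the dim Col13a1 one of 0.51 (adjusted p = 0.0994), turning to -0.20 after normexp background correction.

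The passage difference of all 7 called chains had the same sign in both vector systems, each of which fills 1 slide column. These chains were called from the same 8 arrays, so the shared sign was largely fixed in advance and is no separate check. In the shRNA arrays alone it was 3.97 for Col1a1, 2.08 for Col1a2, 3.24 for Col9a1, 4.31 for Col14a1, 3.39 for Col16a1, 2.31 for Col8a2 and -2.02 for Col25a1, with adjusted p between 0.133 and 0.221 (limma). In the miRNA arrays alone it was 3.87 for Col1a1, 1.80 for Col1a2, 2.72 for Col9a1, 2.81 for Col14a1, 4.38 for Col16a1, 1.81 for Col8a2 and -3.17 for Col25a1, with adjusted p between 0.00227 and 0.0320. None was called in the shRNA arrays, where 0 of all genes tested were called as well. All 7 were called in the miRNA arrays, where 25 of the 47 chains were called in all, 17 higher and 8 lower. Of all genes, 19.3% were called higher and 31.3% lower there. Whether the vector systems differ in the passage difference was not tested.

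None of the 15 basement membrane chains tested passed the test in either direction. As a class they lay mostly above zero, 11 of 15, with a median of 0.92. In 5 of them every P2 array lay above every P0 array, against 9.29% of all genes. In none did every P2 array lie below, against 15.2% of all genes. Collagen IV chains are encoded in head-to-head pairs that share a promoter region. Col4a1 and Col4a2, the pair found in nearly all basement membranes, start 21 bases apart on opposite strands in RefSeq. Col4a1 stood at 3.78 with Nr2f1/2 shRNA, 10.3 with control shRNA, 4.92 with miR-17 and 2.86 with control miRNA at P2. At P0 it stood at 1.48 with Nr2f1/2 shRNA, 1.32 with control shRNA, 3.22 with miR-17 and 1.41 with control miRNA. The ranges overlapped through the tertiary control miRNA culture, and the difference was 1.49 (SE 0.43, adjusted p = 0.0765). Col4a2 ranged from 2.34 to 7.48 at P2 and from 1.58 to 3.72 at P0 (0.76, SE 0.43, adjusted p = 0.233). In both genes the highest value of all 8 arrays was the tertiary control shRNA culture.

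The second pair, Col4a5 and Col4a6, whose starts lie 1343 bases apart on opposite strands, did not overlap between passages. Col4a5 ranged from 3.24 to 8.01 at P2 and from 0.938 to 2.04 at P0 (1.75, SE 0.37, adjusted p = 0.0555). Col4a6 ranged from 1.84 to 2.76 at P2 and from 0.5003 to 1.71 at P0 (1.11, SE 0.40, adjusted p = 0.108), with a second probe at -0.04. Among the 11 chains with several probes well above background on at least 2 arrays, it alone had probes that differed in sign. Within this pair the tertiary miRNA cultures were the highest, unlike in the first pair. Of the last pair, Col4a3 was not well above background, and Col4a4 ranged from 0.0825 to 0.134 at P2 and from 0.112 to 0.434 at P0 (-0.90, adjusted p = 0.0989).

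The laminin alpha chains, which carry the receptor-binding domains, differed in sign among themselves. Lama1, the alpha chain of the earliest embryonic basement membranes and of the pia, stood at 5.33 with Nr2f1/2 shRNA, 9.36 with control shRNA, 1.95 with miR-17 and 1.12 with control miRNA at P2. The primary values were 9.07 with Nr2f1/2 shRNA, 7.96 with control shRNA, 13.9 with miR-17 and 9.30 with control miRNA. It was lower at P2 in 3 of 4 conditions and lowest in the tertiary miRNA cultures, and its difference was -1.61 (SE 0.63, adjusted p = 0.124). Lama2, the alpha chain of muscle, peripheral nerve and brain vessels, ranged from 0.646 to 1.85 at P2 and from 0.0827 to 0.307 at P0. The passages did not overlap, with a difference of 2.62 (SE 0.57, adjusted p = 0.0581). Lama4, a chain of vessel walls, ranged from 0.215 to 0.543 at P2, and at P0 it was well above background only in the miRNA cultures (0.436 with miR-17 and 0.234 with control miRNA). Its difference of 1.99 (SE 1.19, adjusted p = 0.257) turned to -0.44 in the miRNA arrays alone. Lama5, a widespread chain, ranged from 2.27 to 4.70 at P2 and from 1.02 to 2.97 at P0 (0.84, adjusted p = 0.0865). Lama3, an epithelial chain, ranged from 0.147 to 0.361 at P2 and from 0.117 to 0.143 at P0 (0.92, adjusted p = 0.0717). A second Lama3 probe, well above background on 4 of 8 arrays, gave 3.94.

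Lamc1, the gamma chain of most laminins, had the smallest standard error among the laminins whose passages did not overlap. It stood at 11.4 with Nr2f1/2 shRNA, 15.9 with control shRNA, 12.5 with miR-17 and 13.5 with control miRNA at P2. The P0 values were 7.96 with Nr2f1/2 shRNA, 6.37 with control shRNA, 6.57 with miR-17 and 7.15 with control miRNA. The cultures of each passage lay close together, and the difference of 0.92 (SE 0.21) was a 1.90-fold one with an adjusted p of 0.0602. Lamb2, a beta chain of neuromuscular junctions and kidney, ranged from 1.90 to 7.88 at P2 and from 1.57 to 2.47 at P0 (1.19, adjusted p = 0.0675). Lamb3, which joins Lama3 in epithelial laminin, had a difference of -0.51 (0.031 after quantile normalisation). Lamc3, a gamma chain of brain and retina, had -0.28 (0.019 after quantile normalisation). Neither Lamb3 nor Lamc3 passed the test.

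The multiplexins, basement membrane proteoglycans with collagen repeats, were Col15a1 and Col18a1, and neither passed the test. Col18a1, the precursor of the fragment endostatin, stood at 13.2 with Nr2f1/2 shRNA, 2.35 with control shRNA, 6.70 with miR-17 and 4.59 with control miRNA at P2. At P0 it stood at 13.6 with Nr2f1/2 shRNA, 8.81 with control shRNA, 12.9 with miR-17 and 17.7 with control miRNA. It was lower at P2 in all 4 conditions, least so in the knockdown cultures, where the values were nearly equal (-1.21, SE 0.38, adjusted p = 0.0879). Col15a1 was dim, with a difference of 0.12 that turned to -0.26 after normexp background correction.

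Of the 7 chains that changed with passage, 4 have a single RefSeq promoter window in the GRCm38.p6 table. The 150 bases before each start are shown so that the chains that rose can be set beside the one that fell, 5′ to 3′ along the gene. Capitals mark 4 searched motifs on either strand: CCAAT (the CCAAT box), TATAAA (the TATA box), GGGCGG (the GC box) and CAGCTG (an E-box).
Col1a2, chr6:4505468-4505617, plus strand: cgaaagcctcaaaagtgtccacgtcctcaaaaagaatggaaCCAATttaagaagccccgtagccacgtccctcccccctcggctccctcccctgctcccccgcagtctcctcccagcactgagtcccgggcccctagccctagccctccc
Col16a1, chr4:130047690-130047839, plus strand: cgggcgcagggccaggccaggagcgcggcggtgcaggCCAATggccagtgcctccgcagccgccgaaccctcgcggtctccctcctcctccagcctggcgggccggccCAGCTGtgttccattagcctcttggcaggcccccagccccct
Col8a2, chr4:126286644-126286793, plus strand: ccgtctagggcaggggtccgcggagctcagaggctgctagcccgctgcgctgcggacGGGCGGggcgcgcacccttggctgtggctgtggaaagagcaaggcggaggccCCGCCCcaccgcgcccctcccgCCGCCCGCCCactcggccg
Col25a1, chr3:130180695-130180844, plus strand: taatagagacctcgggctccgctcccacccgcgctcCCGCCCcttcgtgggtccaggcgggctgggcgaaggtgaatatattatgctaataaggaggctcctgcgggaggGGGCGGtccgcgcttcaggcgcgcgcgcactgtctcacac
Within these 150 bases, Col1a2 and Col16a1 hold CCAAT, and Col16a1 also CAGCTG. Col8a2 holds GGGCGG or its complement 4 times, 2 of them overlapping, and Col25a1 holds it 2 times. Farther from the start, within 250 bases, Col25a1 holds CCAAT too, and Col1a2 and Col16a1 hold GGGCGG or its complement. Over the 250 bases before the start, 13 of 41 windows of the chains hold CCAAT, 5 hold TATAAA, 22 hold GGGCGG and 6 hold CAGCTG. Among all 32851 RefSeq windows the shares are 33.8% for CCAAT, 12.4% for TATAAA, 32.7% for GGGCGG and 13.0% for CAGCTG. The 41 windows belong to 37 of the 51 chains.

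Genes that make and hold the matrix were examined beside the chains. Over all 27234 genes tested, 2.6% rose and 2.36% fell with passage, and the counts below stand beside these shares. Of 30 genes for collagen folding, cross-linking and propeptide removal, 2 rose and 1 fell, with a median of 0.35. Fkbp10, a collagen chaperone of the endoplasmic reticulum, ranged from 9.30 to 12.7 at P2 and from 2.44 to 3.82 at P0 (1.84, adjusted p = 0.0351). Adamts2, the protease that trims procollagen I, ranged from 0.295 to 1.04 at P2 and from 0.0821 to 0.259 at P0 (2.10, adjusted p = 0.0378). Its relative Adamts3, which acts on procollagen II, was well above background on 1 of 4 P2 arrays and on all P0 arrays, and was at least 5.14-fold lower at P2 (adjusted p = 0.0321). Of 16 basement membrane partners tested, 2 rose, although the median was -0.27. Nid1, the linker of laminin and collagen IV networks, stood at 5.31 with Nr2f1/2 shRNA, 34.2 with control shRNA, 25.9 with miR-17 and 36.7 with control miRNA at P2, against 0.996 to 2.94 at P0. All tertiary values lay above the primary ones, and it rose 12.6-fold (3.66, SE 0.49, adjusted p = 0.0371). Smoc2, a calcium-binding matrix protein, rose 4.38-fold (adjusted p = 0.0430).

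Among 18 receptors for collagens and laminins, 2 rose, against 2.6% of all genes, and the median was 0.30. Adgrg6, an adhesion receptor that in mice Schwann cells need for myelination, rose 6.65-fold (2.73, adjusted p = 0.0292), and Itga2, an integrin for collagen I, at least 1.71-fold from arrays not well above background at P0 (adjusted p = 0.0344). Of 14 matrix-remodelling genes tested, 2 rose and the median was 1.26. Timp4, an inhibitor of metalloproteinases, ranged from 0.735 to 1.84 at P2 and from 0.0598 to 0.161 at P0, a 13.4-fold rise (adjusted p = 0.0372). Ctsk, the collagen-cleaving cathepsin of bone, rose 3.08-fold (adjusted p = 0.0369).

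Markers of several cell types also differed between the passages, where 2.6% of all genes rose and 2.36% fell. Of 18 fibroblast and mesenchyme markers tested, 5 rose and none fell, and their summed normalised intensity was 28.5 to 58.6 at P2 and 10.4 to 20.8 at P0. Postn, a fibroblast matrix protein, rose 12.8-fold (adjusted p = 0.0297), Thy1, a surface protein of fibroblasts and neurons, 58.3-fold (adjusted p = 0.0292), and Mgp, an inhibitor of calcification, at least 19.6-fold (adjusted p = 0.0302). Prrx1 and Foxc1 also rose, whereas Dpt and Tcf21 were well above background on no array. Astrocyte markers summed to 67.5 to 719 at P2 and 10.9 to 20.4 at P0, with 5 of 10 higher. Among them S100b rose at least 154-fold and Ntsr2 at least 53.6-fold (adjusted p = 0.0383 and 0.0361), both from P0 arrays not well above background. Oligodendrocyte precursor markers summed to 7.53 to 190 at P2 and 3.19 to 7.87 at P0. The lowest P2 sum, 7.53, was that of the Nr2f1/2 shRNA culture, below the 7.87 of the miR-17 culture at P0. Of these markers 6 of 8 were higher, among them Gpr17 (at least 339-fold, adjusted p = 0.0428), Cnp (47.9-fold, adjusted p = 0.0408) and Omg (at least 33.2-fold, adjusted p = 0.0375). The part of these cell types in the passage difference of the chains was not tested.

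Other markers gave a mixed picture, beside the same 2.6% of all genes higher and 2.36% lower. Of 9 Schwann cell and neural crest markers tested, 1 rose and 2 fell. Their sum was 3.28 to 250 at P2 and 3.20 to 5.07 at P0, with the tertiary knockdown culture alone at the primary level. The crest factors Tfap2b (-3.37) and Tfap2a (-2.33) fell, and Cdh19 rose at least 1.72-fold. Of 12 neural stem and progenitor markers, 2 rose, Fabp7 2.48-fold and Slc1a3 3.75-fold. None of 12 cartilage, 10 endothelial and mural, or 12 parietal and visceral endoderm markers tested was called. The cartilage markers had a median difference of 0.45, and Matn4, a cartilage matrilin, had one of 2.49 (adjusted p = 0.0671). The cartilage sum was 3.17 to 26.3 at P2 and 2.74 to 3.17 at P0, of which Sox9, also a factor of glia, made up 53.2% to 84.9%. Without Sox9 it was 0.479 to 9.42 at P2 and 0.575 to 1.46 at P0. The endothelial and mural markers had a median difference of -0.61, with 2 of 10 above zero, and Tek, Rgs5 and Abcc9 were well above background on no array. Their sum, of which the VEGF receptor gene Kdr made up 48.6% to 96.0%, was 8.24 to 15.4 at P2 and 8.58 to 11.0 at P0. Without Kdr it was 0.598 to 1.60 at P2 and 0.748 to 4.41 at P0. The endoderm sum, of which Foxa2 made up 45.6% to 89.4%, was 1.80 to 12.5 at P2 and 8.33 to 16.1 at P0. Without Foxa2 it was 0.907 to 3.65 at P2 and 1.59 to 5.47 at P0. The transthyretin gene Ttr had -2.68 (adjusted p = 0.0527).

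The second question was what the knockdown of Nr2f1 and Nr2f2, orphan nuclear receptors that time the generation of neural cell types, did to the chains. Over both passages no chain and no gene was called (limma, 0% of 27234), with 518 genes and 1 chain at an unadjusted p under 0.05. The interaction of knockdown and passage gave 0 calls as well (0% of 27234), with 1075 genes and 1 chain at an unadjusted p under 0.05. What follows compares single arrays and carries no test. A chain was counted when it differed by 2-fold and was well above background on at least 1 of the 2 arrays.

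In primary neurospheres, 0 of 40 chains were 2-fold higher and 0 were 2-fold lower with Nr2f1/2 shRNA than with control shRNA. Over all genes, 3.79% were higher and 1.15% lower by that measure. In tertiary neurospheres, 3 of 48 chains were higher and 16 lower, against 9.36% of all genes higher and 10.4% lower. The median difference of these 48 chains was -0.46 on the log2 scale, and that of all genes 0.07.

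Among the chains higher at P2, Col18a1 stood at 13.2 with Nr2f1/2 shRNA and 2.35 with control shRNA, a 5.64-fold difference. A second Col18a1 probe, well above background on all 8 arrays, gave 1.58 on the log2 scale, against 2.49 for the probe used. Col2a1 stood at 13.7 with Nr2f1/2 shRNA and 5.36 with control shRNA (2.56-fold). Col27a1 stood at 0.567 with Nr2f1/2 shRNA and 0.263 with control shRNA (2.16-fold). All 3 were also above the control at P0, by under 2-fold. The largest difference downward with both arrays above background was that of Col9a1, at 0.205 with Nr2f1/2 shRNA and 1.41 with control shRNA (6.85-fold lower). Its other probe, well above background on 7 of 8 arrays, gave only -0.34 on the log2 scale, against -2.78 for the probe used. Col22a1 stood at 1.16 with Nr2f1/2 shRNA and 4.10 with control shRNA (3.53-fold lower). Col16a1 stood at 3.13 with Nr2f1/2 shRNA and 10.6 with control shRNA (3.38-fold lower). These are all FACIT chains, of which 5 of 9 were 2-fold lower.

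The major collagen IV chains were lower together in that culture than with control shRNA. They were also lower with control miRNA than with control shRNA at P2 (-1.85 for Col4a1 and -1.52 for Col4a2 on the log2 scale). Col4a2 stood at 2.34 with Nr2f1/2 shRNA and 7.48 with control shRNA (3.20-fold lower), and Col4a1 at 3.78 with Nr2f1/2 shRNA and 10.3 with control shRNA (2.73-fold lower). At P0 Col4a1 and Col4a2 differed from the control by 0.17 and 0.06 on the log2 scale. Lower by 2- to 3-fold were also Col1a1, Col1a2, Col3a1, Lama2, Lama3, Lama4, Lamc3, Col9a3 and Col20a1. The second Lama3 probe gave -4.52, against -1.30 for the probe used. The dim chains Col17a1 and Col10a1 were at least 2.03-fold and 1.75-fold lower. In the same pair the astrocyte marker sum was 67.5 with Nr2f1/2 shRNA and 250 with control shRNA, and the oligodendrocyte precursor sum 7.53 against 94.9. The cartilage sum was 3.17 against 10.6, and the fibroblast sum 28.5 against 46.4. The Schwann cell and crest sum was 3.28 against 49.8, and the neural stem and progenitor sum 281 against 462. Less changed were the neuron sum, 101 against 117, and the endothelial and mural sum, 8.24 against 9.89. The endoderm sum was higher, 12.5 against 10.2, of which Foxa2 made up 10.8 and 6.58. What part these cell types had in these differences was not tested. Since the control shRNA array at P2 enters both this pair and the passage comparison, the 2 sets of values are not independent.

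**Figure D4:**
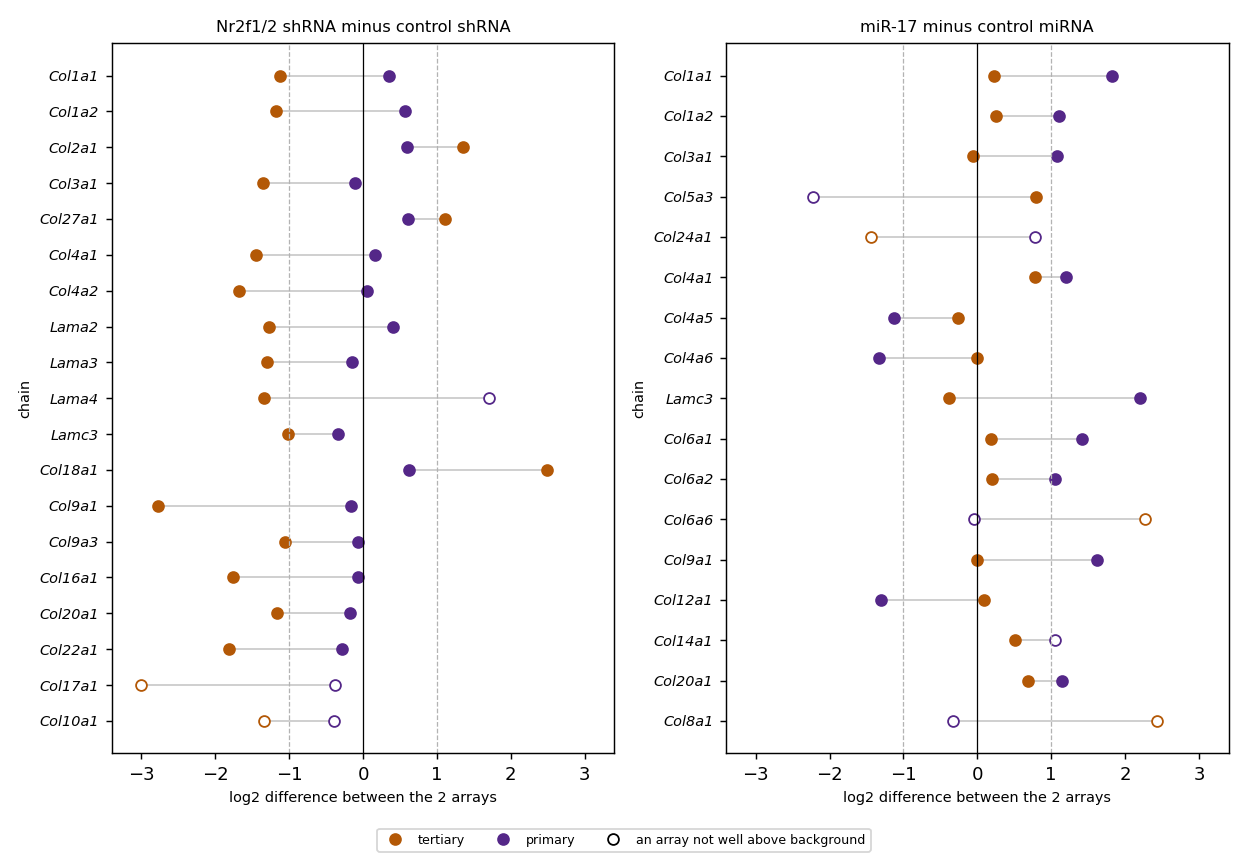
Log2 differences between single arrays, Nr2f1/2 shRNA minus control shRNA (left) and miR-17 minus control miRNA (right), for chains past 2-fold at either passage; dashed lines mark 2-fold, and open points have an array not well above background. Apart from Lama4 at P0, which neither array measured well above background, knockdown differences past 2-fold are tertiary, such as Col18a1 at 2.49 and Col9a1 at -2.78, while most miR-17 differences past 2-fold are primary, such as Lamc3 at 2.20.

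The third question was the effect of miR-17, a member of a microRNA cluster active in proliferating progenitors. Over both passages 0 genes and 0 chains were called (0% of 27234), with 271 genes and 0 chains at an unadjusted p under 0.05. The interaction with passage gave 0 calls (0% of 27234), with 295 genes and 2 chains at an unadjusted p under 0.05. In primary neurospheres, 10 of 42 chains were 2-fold higher with miR-17 than with control miRNA and 4 were lower, against 5.14% of all genes higher and 1.89% lower. The median over these 42 chains was 0.50 on the log2 scale, and over all genes 0.01.

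The chains that were 2-fold higher with miR-17 at P0 were Lamc3, the collagen I and III chains, Col4a1, Col6a1, Col6a2, Col9a1, Col14a1 and Col20a1. Lamc3 stood at 0.476 with miR-17 and 0.103 with control miRNA (4.61-fold higher). Col1a1 stood at 2.20 with miR-17 and 0.618 with control miRNA (3.55-fold). Col9a1 stood at 0.481 with miR-17 and 0.156 with control miRNA (3.07-fold), but its other probe went the other way (-0.43 on the log2 scale, against 1.62). Several of these also had their highest primary value in this culture, among them Col1a1, Col1a2 and Col3a1. Col6a1 stood at 3.54 with miR-17 and 1.32 with control miRNA (2.68-fold), and Col4a1 at 3.22 with miR-17 and 1.41 with control miRNA (2.29-fold). Col20a1 was 2.22-fold higher, and Col1a2, Col3a1 and Col6a2 were between 2.07-fold and 2.15-fold higher. Col14a1 was at least 1.87-fold higher, against an array not well above background, and its helix probe gave -0.17 on the log2 scale, against 1.05 for the probe used.

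The 4 chains lower with miR-17 at P0 included both genes of a head-to-head pair. Col4a6 stood at 0.5003 with miR-17 and 1.25 with control miRNA (2.51-fold lower), and Col4a5 at 0.938 with miR-17 and 2.04 with control miRNA (2.17-fold lower). The second Col4a6 probe, well above background on all 8 arrays, showed no such fall. It gave -0.0045 on the log2 scale, against -1.33 for the probe used. Col12a1, a FACIT of dense connective tissue, was 2.46-fold lower, and Col5a3 at least 2.95-fold lower. Markers of other cell types differed in this pair as well, counted by the same 2-fold measure. Of 18 fibroblast markers 5 were higher and 0 lower, Mgp among them at 0.255 with miR-17 and 0.0592 with control miRNA, while the fibroblast sum was 20.8 with miR-17 and 19.9 with control miRNA. Of 10 endoderm markers 5 were higher and 1 lower, with a sum of 16.1 with miR-17 and 8.33 with control miRNA. Foxa2 alone made up 14.4 of this sum with miR-17 and 6.74 with control miRNA. Of 10 endothelial and mural markers 4 were higher and 0 lower. The median over the tested markers was 0.28 for fibroblasts, 1.01 for endoderm, 0.82 for endothelial and mural cells, 0.48 for astrocytes and 0.45 for Schwann cells and crest. It was 0.51 for neurons, 0.22 for oligodendrocyte precursors, 0.14 for cartilage and -0.22 for neural stem and progenitor cells. The neuron sum was 278 with miR-17 and 198 with control miRNA, whereas the astrocyte sum was 10.9 with miR-17 and 17.2 with control miRNA. Their part in the differences of the chains was not tested.

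In tertiary neurospheres, 2 of 44 chains were higher and 1 lower, against 3.56% of all genes higher and 1.31% lower. These were dim chains, Col8a1 at least 1.24-fold and Col6a6 at least 1.17-fold higher, and Col24a1 at least 1.78-fold lower, and none was well above background on both arrays. The median over the 44 chains was 0.24.

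The 2 controls, each with its own vector system, were also set against each other, as a measure of how far cultures without either manipulation lay apart. In primary neurospheres, 12 of 41 chains were 2-fold higher with control miRNA than with control shRNA and 5 were lower, against 16.6% of all genes higher and 5.12% lower. Lama4 was at least 6.26-fold higher. Col3a1 stood at 7.75 with control miRNA and 1.22 with control shRNA (6.32-fold higher), Col6a2 at 0.266 with control miRNA and 0.0526 with control shRNA (5.05-fold), and Col8a2 at 0.211 with control miRNA and 0.0655 with control shRNA (3.22-fold). Col4a4 and Col1a1 were 2.74-fold and 2.66-fold higher. Col25a1 stood at 0.579 with control miRNA and 2.71 with control shRNA (4.68-fold lower). Col5a2 and Col20a1 were 2.93-fold and 2.57-fold lower, Col9a3 at least 2.69-fold and Col6a4 at least 1.42-fold. In this pair 8 of 18 fibroblast markers were 2-fold higher and 0 lower, with a sum of 19.9 with control miRNA and 10.4 with control shRNA. Of 9 endothelial and mural markers 4 were higher, and of 11 endoderm markers 2 were higher and 5 lower. The part of these cell types was not tested.

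In tertiary neurospheres, 4 of 48 chains were higher and 16 lower with control miRNA, against 10.2% of all genes higher and 14.8% lower. Lama1 stood at 1.12 with control miRNA and 9.36 with control shRNA (8.38-fold lower). Col25a1 stood at 0.0653 with control miRNA and 0.478 with control shRNA (7.32-fold lower), and Col22a1 at 0.829 with control miRNA and 4.10 with control shRNA (4.94-fold lower). Col28a1 was at least 3.17-fold and Col17a1 at least 1.19-fold lower, and Col8a1 gave no bound above 1. Col4a1 and Col4a2 were lower as well (-1.85 and -1.52 on the log2 scale). The other way, Col9a3 stood at 3.59 with control miRNA and 0.709 with control shRNA (5.06-fold higher). Col1a1 was 2.61-fold, Lamb2 2.10-fold and Col4a5 2.05-fold higher. Of 11 endoderm markers 9 were 2-fold lower, with a sum of 1.80 with control miRNA and 10.2 with control shRNA. Foxa2 alone made up 0.820 of this sum with control miRNA and 6.58 with control shRNA. Of 8 endothelial and mural markers 6 were lower, and of 8 neuron markers 5. Of 10 astrocyte markers 8 were higher, with a sum of 719 with control miRNA and 250 with control shRNA, and of 11 cartilage markers 6. The part of these cell types was not tested. At P2, 20 of 48 chains were past 2-fold between the controls, and 19 of 48 between the knockdown and its control. These pairs share the control shRNA array. Taking the mean of both miRNA cultures minus the mean of both shRNA cultures, Col25a1 stood at -1.997 at P0 and -3.15 at P2, and Col1a1 at 2.15 at P0 and 2.06 at P2. Col9a3 changed sign, with -1.23 at P0 and 2.95 at P2, as did Lama1, with 0.42 at P0 and -2.26 at P2.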

How the data were processed

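The deposited scanner files give the intensity of each spot on 8 one-colour Agilent arrays, which per the file headers Feature Extraction 10.7.3.1 had background-subtracted and detrended. A second deposited file holds signal values: each is the spot intensity over a constant of its array (481 to 949), linear, not centred by gene, with column medians of 0.0662 to 0.124. The origin of these constants is not given in the sources. Probe coordinates are mm9, per the file headers.

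Control spots and 1104 outlier spots were left out, which left 55653 probes. The log2 intensity was averaged per probe and the array's 75th percentile subtracted. The deposited flag for signal well above background had to hold on at least 2 arrays. The model, in limma 3.58.1 (R 4.3.3), had terms for condition and passage (3 residual degrees of freedom) and was tested on simulated data. The interaction fit had 1. A call is an adjusted p under 0.05. A dim probe gives only a bound, against its own signal or the lowest on that array well above background, whichever is higher ("at least").

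The chains, their classes and the gene lists were chosen with earlier results of these data known. Named are all called chains, those with the highest mean in each class, the 6 largest differences each way per pair of arrays past 2-fold, the collagen IV pairs, and up to 3 genes per list. The other chains are named to account for the members, except 1 that is not reported here. Marker sums without the brightest gene of their list were added after the data were seen. Alternatives were normexp background correction (offset 50), quantile normalisation, other filters, the mean of probes, the authors' table, a trended prior, no block, subsets of arrays, each array left out, and other fold limits.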

Additional observations from a re-analysis of the deposited data

How the results depend on the processing

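The number of arrays limits the precision, and dim chains have only bounds. The all-gene median passage difference was -0.21, against -0.02 after quantile normalisation and -0.23 after normexp, and 52.5% of calls were higher, against 66.1% after quantile normalisation and 30.6% after normexp. The median of the chains relative to all genes was 1.13, against 0.98 after quantile normalisation and 0.69 after normexp.

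The 7 chains and 1351 genes called with passage became 19 and 7051 after normexp, 14 and 3677 with a filter on all 8 arrays, 15 and 4319 with a trended prior, and 12 and 3922 with no condition block. They became 0 and 0 in the controls alone or the shRNA arrays alone, and 25 and 13785 in the miRNA arrays alone. With 1 array left out they ranged from 0 to 13 chains and from 0 to 4813 genes. Quantile normalisation, no filter, the mean of probes and the authors' table stayed within 1.5 times. The cause of these shifts was not tested.

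Passage differences of uncalled chains reversed to 0.031 (Lamb3) and 0.019 (Lamc3) under quantile normalisation, and to -0.26 (Col15a1) and -0.20 (Col13a1) under normexp. In the miRNA arrays alone they reversed to -0.44 (Lama4), 0.10 (Col20a1), -0.28 (Col7a1) and -0.64 (Col28a1). Lamc3 was 0.54 in the controls and 0.27 in the shRNA arrays. With 1 array left out, Lamc3 ranged from -0.58 to 0.33 and Col15a1 from -0.036 to 0.28. Between the controls at P2, normexp turned Col24a1 to 0.0074 and Col8a1 to 0.074. Over 451 other settings of 42 chains, 370 kept direction and side of the threshold, 20 lost the call and 51 gained it.

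Chains past the fold limit numbered, at 1.5-fold, 6 (knockdown P0), 32 (knockdown P2), 25 (miR-17 P0) and 15 (miR-17 P2). At 3-fold they numbered 6 (knockdown P2), 4 (miR-17 P0), 6 (controls P0) and 10 (controls P2). After normexp they numbered 0 (miR-17 P2), 10 (controls P0) and 11 (controls P2), after quantile normalisation 12 (controls P2), and with both arrays well above background 0 (miR-17 P2). No paired analysis by replicate number was possible because each group has 1 array, and the arrays of a condition were already paired by its block.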

Other observations

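Some chains carry older names on this array and fell outside the selection by name. The probe named Lamb1-1 belongs to Lamb1, the beta chain that joins Lama1 and Lamc1 in the commonest early laminin. It stood at 3.11 with Nr2f1/2 shRNA, 6.63 with control shRNA, 2.57 with miR-17 and 2.61 with control miRNA at P2. At P0 it stood at 2.75 with Nr2f1/2 shRNA, 2.17 with control shRNA, 4.93 with miR-17 and 3.57 with control miRNA. It was higher at P2 in the shRNA cultures and lower in the miRNA cultures, and its passage difference was 0.10 (SE 0.45, adjusted p = 0.878). Col26a1, named Emid2 on the array, ranged from 4.94 to 9.04 at P2 and from 7.64 to 10.1 at P0 (-0.37, SE 0.25, adjusted p = 0.301). Col6a5, named Gm7455, was well above background on no array.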
